A study of Mus musculus with 12 samples.

Results

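The nuclear receptor gene Ppara and 33 genes of fatty acid uptake, activation, oxidation and ketone body formation were followed in liver RNA of 12 female C57BL/6 mice aged 3 months. The 34 genes were taken from the deposited gene table by symbol, and all 34 were found among its 13097 genes and passed the filter on low counts. RNA was sequenced from 3 livers in each of 4 groups. The 4 groups were ethanol-fed mice labelled as Sirt6 liver-specific knockouts, ethanol-fed wild type (WT) mice, pair-fed mice labelled as knockouts and pair-fed WT mice. Ethanol-fed mice received a 5% Lieber-DeCarli ethanol liquid diet over 10 days and then 1 ethanol binge of 5 g/kg, a common model of alcohol-related liver injury. Pair-fed mice received an isocaloric control diet for the same 10 days and then a maltose dextrin binge. How the deletion was made, and which exons it removes, is not described in the labels.

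Liver cells burn fatty acids in mitochondria and peroxisomes. Fatty acids are bound and activated to acyl-CoA, long chains enter mitochondria as carnitine esters, and a repeating cycle of dehydrogenation, hydration, oxidation and thiolysis then removes acetyl-CoA units. Peroxisomes shorten very long chains by a parallel set of enzymes, and the liver turns surplus acetyl-CoA into ketone bodies for other organs. PPARA, a receptor activated by fatty acids, pairs with RXR proteins on direct repeats of the sequence AGGTCA and is the main transcriptional activator of these genes in rodent liver. SIRT6, a nuclear deacetylase and the gene labelled as deleted here, is known as a regulator of hepatic glucose and lipid metabolism.

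Promoter windows show how such a repeat can lie in front of an oxidation gene. RefSeq windows of the GRCm38.p6 build, from 250 bases before to 50 bases after each start site, were matched by symbol for 29 of the 34 genes. The genes not matched were Crat, Acaa2, Decr1, Hsd17b4 and Vnn1. AGGTCA was found on either strand in 6 of the 29 genes (20.7%), against 16.3% of all 32851 windows of that length. The PPARA repeat known as DR1, which is AGGTCA followed by any 1 base and AGGTCA again, was searched on both strands and found without a mismatch in 0 of the 29 genes, against 0.0396% of all windows. With up to 1 mismatch it was found in 1 gene (3.45%, against 0.554% of all windows), and with up to 2 mismatches in 4 genes (13.8%, against 3.86%). The mismatch limits were added after the data had been seen. These counts describe letters in a short window, and no binding was measured.

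The closest match lay before the start site of Fabp1, the gene with the highest level per length of the set in all 4 groups. The 250 bases before that start site (GRCm38.p6, chr6:71199629-71199878, plus strand) are shown with the match in capitals. It begins at position -67, counted back from -1 as the last base before the start, and reads as the repeat on the minus strand.
Fabp1 upstream: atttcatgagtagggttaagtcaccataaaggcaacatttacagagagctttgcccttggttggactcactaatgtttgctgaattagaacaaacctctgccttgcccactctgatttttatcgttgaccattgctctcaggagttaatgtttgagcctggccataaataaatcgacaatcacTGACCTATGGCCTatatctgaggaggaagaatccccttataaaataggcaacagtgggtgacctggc
The 4 matches are shown in the direction of the motif for comparison, with capitals where a base equals the motif and small letters for mismatched bases and the spacer base.
Fabp1, begins at -67, minus strand: AGGcCAtAGGTCA
Slc25a20, begins at 7, plus strand: AGGTgAaAGGTCg
Echs1, begins at -83, plus strand: AGGTCAcgGGTCc
Etfa, begins at -77, minus strand: AGGgCAaAGGTaA
The match of Slc25a20 begins 7 bases into the transcript, and the other 3 lie before the start site.

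Library totals ranged from 17305141 to 18279809 counted reads. The 34 genes took 1.17% to 1.29% of the reads in ethanol-fed mice labelled knockout and 1.04% to 1.24% in ethanol-fed WT mice, against 1.80% to 1.86% in pair-fed mice labelled knockout and 1.45% to 1.91% in pair-fed WT mice. The hepatocyte product Alb took 6.10% to 9.55% of the reads in the 6 ethanol-fed livers and 11.03% to 12.7% in the 6 pair-fed livers. Biological variation between mice was larger under ethanol, with a coefficient of 0.224 in mice labelled knockout and 0.271 in WT mice, against 0.114 and 0.117 in the pair-fed mice of those labels. Sirt6 had 53, 58 and 62 reads in ethanol-fed mice labelled knockout and 67, 54 and 60 in ethanol-fed WT mice, with a log2 fold change of 0.01 ± 0.21 (SE). It had 52, 46 and 47 reads in pair-fed mice labelled knockout and 51, 49 and 68 in pair-fed WT mice, with a log2 fold change of -0.23 ± 0.21 (adjusted p = 0.914, edgeR quasi-likelihood test). The Sirt6 counts therefore did not separate the genotype labels, and whether the counted exons include the deleted part is not stated in the labels. Mice are called labelled knockout throughout for this reason.

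Ethanol feeding lowered many of the 34 genes and raised none at an adjusted p under 0.05, whichever genotype label the mice carried. In mice labelled knockout 14 of 34 genes fell, against 10.9% of all genes tested, and 0 rose, against 13.7% of all genes. In WT mice 23 of 34 fell, against 14.5% of all genes, and 0 rose, against 18.9%. The median log2 fold change of the 34 genes was -0.46 in mice labelled knockout and -0.54 in WT mice, beside 0.04 and 0.03 over all genes tested. Calls are from edgeR's quasi-likelihood test with Benjamini-Hochberg adjustment over all 13097 genes. At an unadjusted p under 0.05, 23 of the 34 genes were lower under ethanol in mice labelled knockout and 25 in WT mice. At that threshold 0 were higher in either genotype. Of all 13097 genes, 2240 were lower and 2703 higher at that threshold in mice labelled knockout. In WT mice 2524 were lower and 3206 higher.

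The values of the 3 mice of each group lay apart for most of the genes. In mice labelled knockout, all 3 ethanol-fed values lay below all 3 pair-fed values for 26 genes (20.4% of all genes did so) and above them for 0 (23.5% of all genes). In WT mice this held for 20 genes below (22.3% of all genes) and 0 above (24.8%). The calls in the 2 genotypes shared 13 genes, which are 92.9% of the 14 and 56.5% of the 23. Both sets of calls use a spread per gene shared by the 4 groups, and the same overlap over all genes was not counted. Vnn1 was called in mice labelled knockout alone, and 10 genes were called in neither genotype. Those 10 were Acsl5, Cpt1a, Slc25a20, Cpt2, Crat, Acadm, Etfb, Etfdh, Crot and Pdk4. The count of 14 came to 22 without ethanol-fed knockout-labelled mouse 3 and to 23 with DESeq2. The count of 23 came to 11 without pair-fed WT mouse 3, and to 14 without pair-fed WT mouse 2 or without ethanol-fed WT mouse 3.

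**Figure D1:**
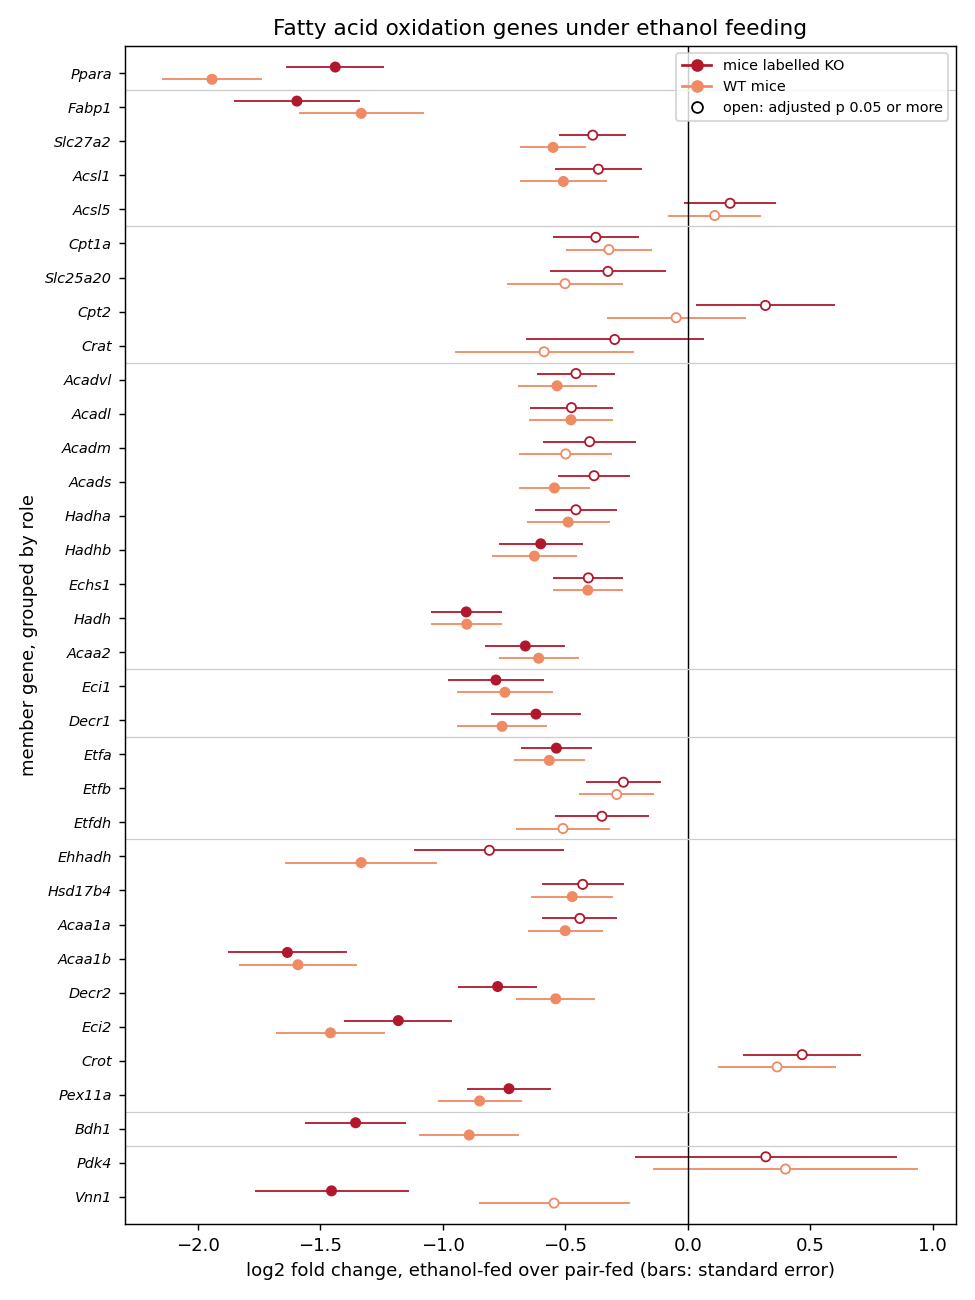
Log2 fold change of each gene, ethanol-fed over pair-fed, in mice labelled knockout and in WT mice, with bars of 1 standard error and open points at an adjusted p of 0.05 or more. Ppara, Fabp1, Acaa1b, Eci2 and Bdh1 lie farthest to the left in mice labelled knockout together with Vnn1, and Crot, Pdk4 and Acsl5 lie right of 0 in both genotypes without passing the test.

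**Figure D2:**
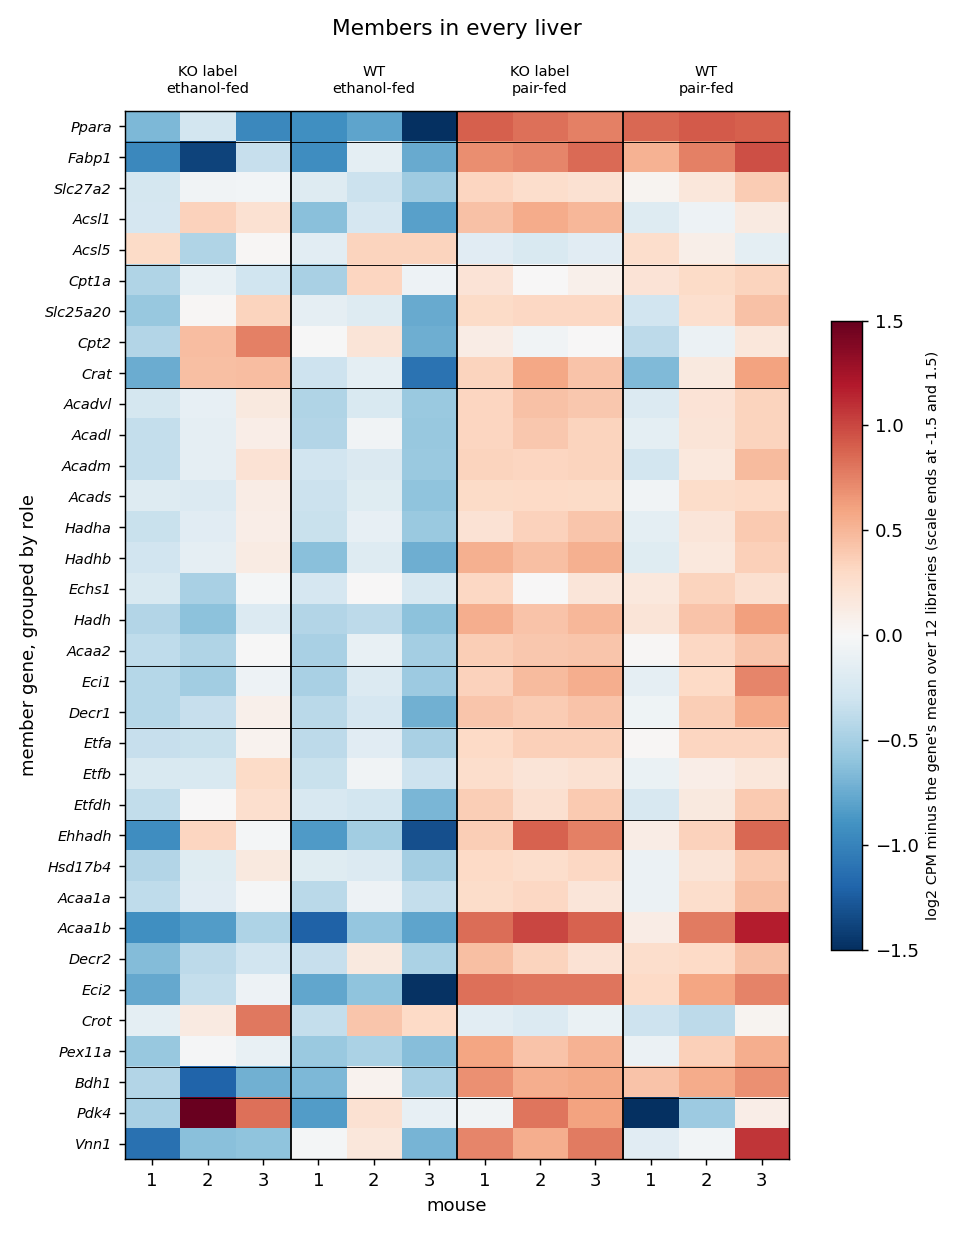
Level of each gene in every liver as log2 CPM minus the gene's mean over the 12 libraries, with genes grouped by role and mice 1 to 3 of each group in columns. Most rows are blue in the 6 ethanol-fed columns and red in the pair-fed columns, with the pair-fed WT mouse 1 column paler or blue.

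Ppara, the receptor gene itself (chromosome 15, 85735564 to 85806851, plus strand, mm10), had the largest fall of the 34 genes in WT mice. Its level was 228, 302 and 187 CPM (a gene's reads relative to the library total, scaled by the trimmed mean of M-values, TMM) in ethanol-fed mice labelled knockout, against 681, 647 and 618 CPM in their pair-fed counterparts. In WT mice it was 194, 211 and 125 CPM when ethanol-fed and 665, 691 and 681 CPM when pair-fed. The highest ethanol-fed liver thus lay below every pair-fed liver in both genotypes. The level under ethanol was 0.369 times the pair-fed level in mice labelled knockout (log2 fold change ± SE of -1.44 ± 0.20, adjusted p = 0.000547, edgeR) and 0.26 times in WT mice (-1.94 ± 0.20, adjusted p = 7.75e-05).

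Of 16 partners and co-regulators of the receptor, 2 rose and 2 fell in mice labelled knockout, and 2 rose and 0 fell in WT mice. Over all genes, 24.6% passed the test in either direction in mice labelled knockout and 33.4% in WT mice. Rxra, the partner that shares the repeat with PPARA, had 492, 570.3 and 521 CPM in ethanol-fed and 716, 774 and 652 CPM in pair-fed mice labelled knockout (log2 fold change -0.44 ± 0.15, adjusted p = 0.0482, edgeR). In WT mice Rxra had 674, 777 and 515 CPM when ethanol-fed and 794, 794 and 797 CPM when pair-fed, and the test was not passed. Lpin1, a phosphatidate phosphatase that also acts as a coactivator of PPARA, had 87.2, 238 and 58.1 CPM in ethanol-fed and 717, 688 and 813 CPM in pair-fed mice labelled knockout (-2.53 ± 0.71, adjusted p = 0.0245, edgeR). In WT mice Lpin1 had 499, 185 and 51.8 CPM when ethanol-fed and 790, 1194 and 661 CPM when pair-fed. Those groups did not overlap either, although the test was not passed. Creb3l3, a liver transcription factor that works with PPARA in fasting, rose by 1.06 ± 0.15 in mice labelled knockout and by 0.80 ± 0.15 in WT mice on the log2 scale. Pparg, the adipose paralogue of Ppara, rose by 1.17 ± 0.31 in mice labelled knockout and 1.00 ± 0.30 in WT mice.

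Among the genes of fatty acid binding and activation, Fabp1 fell most. Fabp1 encodes the liver fatty acid-binding protein that carries fatty acids through the cytosol, and its promoter sequence is the one shown first. It had 839, 626 and 1286 CPM in ethanol-fed mice labelled knockout, against 2649.9, 2714 and 2950.1 CPM in pair-fed ones. In WT mice it had 859, 1473 and 966 CPM when ethanol-fed and 2344, 2758 and 3205 CPM when pair-fed. The groups did not overlap in either genotype, and the log2 fold changes were -1.60 ± 0.26 (adjusted p = 0.00117) with the knockout label and -1.33 ± 0.26 (adjusted p = 0.00203, edgeR) in WT. Fabp1 also had the highest level per length of the set, with 1864 and 2234 CPM per kilobase in ethanol-fed mice labelled knockout and ethanol-fed WT mice, against 5632 in pair-fed mice labelled knockout and 5629 in pair-fed WT mice, by the deposited gene length.

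The other 3 genes of this step changed less. Slc27a2, a transporter and very-long-chain acyl-CoA synthetase, had 1321, 1209 and 1048 CPM in ethanol-fed and 1559, 1711 and 1969 CPM in pair-fed WT mice, and fell there (-0.55 ± 0.14, adjusted p = 0.00821, edgeR). Its change in mice labelled knockout was -0.39 ± 0.14 and just missed the threshold (adjusted p = 0.0535, edgeR). Acsl1, the main long-chain acyl-CoA synthetase of liver, fell in WT mice by 0.51 ± 0.18 on the log2 scale (adjusted p = 0.0436, edgeR), a call lost without any 1 of 8 libraries. Acsl5, another long-chain synthetase, had 512, 308 and 426 CPM in ethanol-fed and 373, 360.0 and 372 CPM in pair-fed mice labelled knockout, and the groups overlapped. Of 15 further synthetase and entry genes tested, 2 rose and 3 fell in mice labelled knockout, against 13.7% and 10.9% of all genes. In WT mice 2 rose and 6 fell, against 18.9% and 14.5% of all genes. Acsl4, a synthetase that prefers arachidonate, rose by 1.28 ± 0.32 with the knockout label and 1.77 ± 0.32 in WT on the log2 scale. Dbi, the acyl-CoA-binding protein, fell by 0.91 ± 0.21 with the knockout label and 0.81 ± 0.21 in WT.

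No gene of the carnitine shuttle was called. None of the 4 passed the test in either genotype, and 0 of the 4 passed even at an unadjusted p under 0.05. Over all genes, 24.6% passed the adjusted threshold in mice labelled knockout and 33.4% in WT mice, in either direction. At the unadjusted threshold, 2703 of all 13097 genes were higher and 2240 lower in mice labelled knockout. The counts in WT mice were 3206 higher and 2524 lower. Cpt1a, the outer-membrane transferase that sets the rate of mitochondrial entry, had 518, 661 and 578 CPM in ethanol-fed and 817, 714 and 747 CPM in pair-fed mice labelled knockout. In WT mice Cpt1a had 509, 886 and 673 CPM when ethanol-fed and 821, 871 and 893 CPM when pair-fed, so 1 ethanol-fed liver reached the pair-fed range. Its log2 fold changes had 95% intervals of -0.76 to 0.01 in mice labelled knockout and -0.70 to 0.06 in WT mice, so a moderate fall stayed within the error. Cpt2, the inner-membrane transferase, differed in sign between genotypes, with a log2 fold change of 0.32 ± 0.28 in mice labelled knockout and -0.05 ± 0.28 in WT mice, and the WT value turned to 0.10 with total counts as the only scaling. Slc25a20, the carnitine-acylcarnitine carrier, and Crat, carnitine acetyltransferase, had log2 fold changes between -0.59 and -0.30 over the 2 genotypes. Of 9 genes of carnitine synthesis and malonyl-CoA control tested, 0 rose in either genotype. In mice labelled knockout 1 fell and in WT mice 3 fell, against 10.9% and 14.5% of all genes. Bbox1, the last enzyme of carnitine synthesis, fell in both, to 101, 79.5 and 100.3 CPM in ethanol-fed mice labelled knockout, against 206, 173 and 163 CPM in pair-fed ones (-0.95 ± 0.15, adjusted p = 0.00109, edgeR). Aldh9a1, an aldehyde dehydrogenase of the same route, had 300.2, 267 and 197 CPM in ethanol-fed and 336, 378 and 372 CPM in pair-fed WT mice (-0.51 ± 0.17, adjusted p = 0.0322, edgeR).

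The genes of the mitochondrial oxidation cycle had modest negative changes. All 9 had a negative log2 fold change in both genotypes, between -0.90 and -0.38 in mice labelled knockout and between -0.90 and -0.41 in WT mice. Of the 9, 3 passed the test in mice labelled knockout and 8 in WT mice, against 10.9% and 14.5% of all genes lowered. Hadh, the short-chain hydroxyacyl-CoA dehydrogenase, fell most. It had 321, 284 and 376 CPM in ethanol-fed and 634, 587 and 614 CPM in pair-fed mice labelled knockout, and 321, 331 and 285 CPM in ethanol-fed and 497, 585 and 669 CPM in pair-fed WT mice. No ethanol-fed liver reached a pair-fed one, and the changes were -0.90 ± 0.14 (adjusted p = 0.00107) with the knockout label and -0.90 ± 0.14 (adjusted p = 0.000707, edgeR) in WT. Acaa2, the mitochondrial thiolase that ends each turn, fell by 0.66 ± 0.16 with the knockout label and 0.61 ± 0.16 in WT.

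The acyl-CoA dehydrogenases that open each turn lay close to the threshold. Acadvl, Acadl, Acadm and Acads serve very long, long, medium and short chains. Their changes in mice labelled knockout ran from -0.47 to -0.38 with adjusted p between 0.0547 and 0.141, and all 3 ethanol-fed values lay below all pair-fed values for each of the 4. In WT mice Acadvl, Acadl and Acads fell, by 0.53 ± 0.16, 0.48 ± 0.17 and 0.54 ± 0.15. The level of Acadvl is uncertain, because its exons partly overlap those of Dvl2 on the opposite strand. Acadm, the medium-chain enzyme, had 294, 310.2 and 244 CPM in ethanol-fed and 297, 402 and 499 CPM in pair-fed WT mice, where pair-fed mouse 1 lay within the ethanol-fed range (adjusted p = 0.0594, edgeR). Of 12 further mitochondrial acyl-CoA dehydrogenases and helper enzymes, 0 rose. In mice labelled knockout 2 fell and in WT mice 3 fell, against 10.9% and 14.5% of all genes. Acad8, an enzyme of valine breakdown, fell in both, by 0.57 ± 0.13 with the knockout label and 0.53 ± 0.13 in WT.

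Hadha and Hadhb, the subunits of the mitochondrial trifunctional protein, are neighbours on chromosome 5, transcribed away from each other with 272 bases between them. Hadha had 409, 475 and 350.3 CPM in ethanol-fed and 467, 585 and 679.6 CPM in pair-fed WT mice, a fall of 0.49 ± 0.17 with overlapping groups. Hadhb fell by 0.60 ± 0.17 in mice labelled knockout (adjusted p = 0.0227) and by 0.63 ± 0.17 in WT mice (adjusted p = 0.0141, edgeR). Per length Hadhb stood at 15.5 CPM per kilobase in pair-fed WT mice and Hadha at 150.4. Of the Hadhb transcript, 69.7% has a copy at up to 99.8% identity in 2 processed pseudogenes (Gm13910 and Gm9108), so its level is uncertain.

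Enzymes for unsaturated chains and a carrier of electrons from the acyl-CoA dehydrogenases were also lower. Eci1, which moves the double bond of unsaturated chains, fell by 0.78 ± 0.20 in mice labelled knockout and 0.75 ± 0.20 in WT mice. Decr1, the mitochondrial dienoyl-CoA reductase, fell by 0.62 ± 0.18 with the knockout label and 0.76 ± 0.18 in WT. Etfa, a subunit of the flavoprotein that takes electrons from the dehydrogenases, fell to 215, 216 and 283 CPM in ethanol-fed mice labelled knockout, against 336, 351 and 349 CPM in pair-fed ones, and fell in WT mice too. Its partner Etfb and Etfdh, which passes the electrons to ubiquinone, did not pass the test in either genotype. Of Etfb's exons, 68.3% overlap the annotated transcript Gm45233 on the same strand, so its reads cannot be told apart from those of that transcript.

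Peroxisomal genes included some of the largest falls and 1 gene, Crot, with a positive but uncalled change. Of the 8 peroxisomal genes, 4 fell in mice labelled knockout and 7 in WT mice. Of the 18 mitochondrial genes, 6 fell in mice labelled knockout and 11 in WT mice. Over all genes, 10.9% fell in mice labelled knockout and 14.5% in WT mice. The median log2 fold change of the peroxisomal genes was -0.75 in mice labelled knockout and -0.69 in WT mice, and that of the mitochondrial genes was -0.43 in mice labelled knockout and -0.52 in WT mice. Without ethanol-fed mouse 1 the mitochondrial count in mice labelled knockout came to 3, and without mouse 3 to 12. Without pair-fed mouse 3 the mitochondrial count in WT mice came to 3, and without ethanol-fed mouse 3 the peroxisomal count came to 4. The difference between the compartments was not tested. Acaa1b, a peroxisomal thiolase, had 296, 315 and 409 CPM in ethanol-fed and 1008, 1122 and 1037 CPM in pair-fed mice labelled knockout. In WT mice it had 243, 376 and 325 CPM when ethanol-fed and 608, 966 and 1269.6 CPM when pair-fed. Every ethanol-fed liver lay below every pair-fed one, and the changes were -1.63 ± 0.24 (adjusted p = 0.000756) with the knockout label and -1.59 ± 0.24 (adjusted p = 0.000537, edgeR) in WT. Its near-identical neighbour Acaa1a, 184200 bases away on chromosome 9, changed by -0.44 ± 0.15 with the knockout label and -0.50 ± 0.15 in WT and passed the test in WT mice. Matches between the transcripts of the 2 thiolases cover 81% of Acaa1a at up to 98.7% identity, so how reads were split between them is uncertain.

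Eci2, the peroxisomal enoyl-CoA isomerase, had 134, 178 and 216 CPM in ethanol-fed and 406, 397 and 397 CPM in pair-fed mice labelled knockout. In WT mice it had 133, 151 and 81.9 CPM when ethanol-fed and 281, 344 and 381 CPM when pair-fed. It fell in both (-1.18 ± 0.22, adjusted p = 0.00256 with the knockout label, and -1.46 ± 0.22, adjusted p = 0.000521 in WT, edgeR). Ehhadh, the L-bifunctional protein and a classical PPARA target, had 279.9, 350.2 and 202 CPM in ethanol-fed and 542, 637 and 917 CPM in pair-fed WT mice (-1.33 ± 0.31, adjusted p = 0.00639, edgeR). Ehhadh in mice labelled knockout had 264, 629.7 and 493 CPM when ethanol-fed and 650.2, 928 and 852 CPM when pair-fed, groups that did not overlap but did not pass the test (-0.81 ± 0.31, adjusted p = 0.0727, edgeR). Pex11a, which acts in peroxisome division, fell by 0.73 ± 0.17 with the knockout label and 0.85 ± 0.17 in WT, and Decr2, the peroxisomal dienoyl-CoA reductase, by 0.78 ± 0.16 with the knockout label and 0.54 ± 0.16 in WT. Hsd17b4, the D-bifunctional protein, fell in WT mice by 0.47 ± 0.17. Crot, the carnitine octanoyltransferase that exports shortened chains, had 341, 413 and 653 CPM in ethanol-fed and 338, 329 and 352 CPM in pair-fed mice labelled knockout, with a change of 0.47 ± 0.24 that was not called (adjusted p = 0.173, edgeR).

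Of 12 further genes of peroxisomal oxidation, 1 rose and 2 fell in each genotype, a share of calls near or below that of all genes (24.6% in mice labelled knockout and 33.4% in WT mice). Their log2 fold changes were negative for 11 of 12 in mice labelled knockout and 10 of 12 in WT mice, with medians of -0.15 and -0.23. Acox2, the oxidase of bile acid intermediates, had 309.8, 251 and 339 CPM in ethanol-fed and 97.4, 70.5 and 114 CPM in pair-fed mice labelled knockout, and 322, 351 and 296 CPM in ethanol-fed and 91.8, 101 and 107 CPM in pair-fed WT mice. It rose in both (1.67 ± 0.18, adjusted p = 0.000112 with the knockout label, and 1.70 ± 0.18, adjusted p = 7.73e-05 in WT, edgeR). Ech1, a dienoyl-CoA isomerase, fell by 0.82 ± 0.20 with the knockout label and 0.89 ± 0.20 in WT. Of 20 genes of peroxisome assembly and transport, 5 rose and 4 fell in mice labelled knockout, against 13.7% and 10.9% of all genes. In WT mice 3 rose and 5 fell, against 18.9% and 14.5% of all genes. Abcd2 and Abcd3, carriers of fatty acyl chains into peroxisomes, fell in both genotypes, by 1.33 ± 0.20 and 0.56 ± 0.15 in mice labelled knockout. Slc25a17, a cofactor carrier of the peroxisomal membrane, rose by 0.67 ± 0.19 with the knockout label and 0.93 ± 0.19 in WT.

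**Figure D3:**
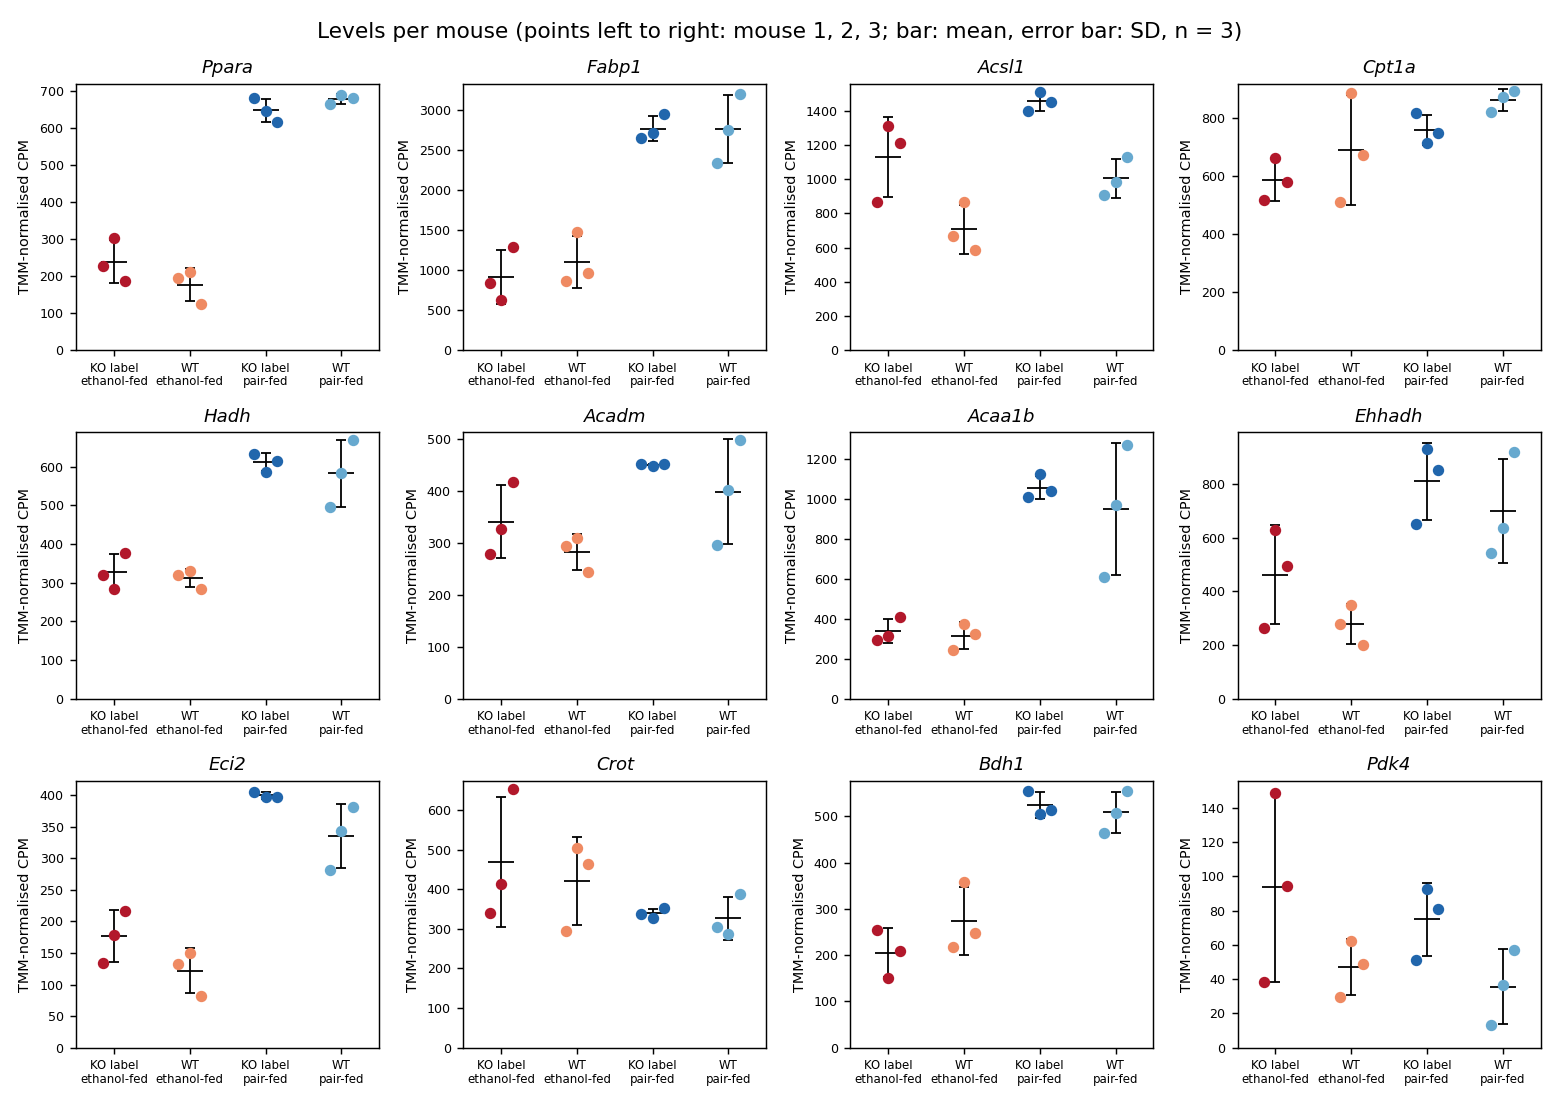
TMM-normalised CPM of 12 of the genes in every mouse of the 4 groups, with the mean as a bar and the SD as an error bar (n = 3). Within each genotype the ethanol-fed mice lie below the pair-fed mice for Ppara, Fabp1, Hadh, Acaa1b, Ehhadh, Eci2 and Bdh1, whereas Cpt1a in WT mice, Crot and Pdk4 overlap.

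The 1 ketogenic gene of the 34 was lower too. Bdh1, which converts acetoacetate to beta-hydroxybutyrate, had 255, 149.9 and 209 CPM in ethanol-fed and 556, 504 and 513 CPM in pair-fed mice labelled knockout. In WT mice it had 217, 358 and 247 CPM when ethanol-fed and 465, 507 and 555 CPM when pair-fed. The groups did not overlap, and the changes were -1.36 ± 0.21 (adjusted p = 0.00086) with the knockout label and -0.89 ± 0.21 (adjusted p = 0.00544, edgeR) in WT. Acat1, the thiolase that starts the pathway, fell by 0.69 ± 0.18 with the knockout label and 0.52 ± 0.18 in WT. Slc16a1, a carrier of ketone bodies and lactate, rose by 0.63 ± 0.19 with the knockout label and 0.97 ± 0.19 in WT.

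Pdk4 and Vnn1 are PPARA targets outside the oxidation pathway. Pdk4, the kinase that switches off pyruvate dehydrogenase, had 38.1, 149 and 94.2 CPM in ethanol-fed and 51.3, 92.6 and 81.1 CPM in pair-fed mice labelled knockout, and 29.9, 62.4 and 48.9 CPM in ethanol-fed and 13.5, 36.4 and 57.2 CPM in pair-fed WT mice. The groups overlapped in both genotypes (0.32 ± 0.53 with the knockout label and 0.40 ± 0.54 in WT, not called). Vnn1, a pantetheinase, had 35.4, 49.6 and 50.5 CPM in ethanol-fed and 128, 112 and 132 CPM in pair-fed mice labelled knockout (-1.45 ± 0.31, adjusted p = 0.0069, edgeR). In WT mice Vnn1 had 75.4, 86.2 and 47.5 CPM when ethanol-fed and 68.3, 75.1 and 162 CPM when pair-fed, with overlapping groups (-0.55 ± 0.31, adjusted p = 0.195, edgeR). The difference between the genotypes in this change was -0.91 ± 0.44 and did not pass the interaction test (adjusted p = 0.948, edgeR).

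Other known PPARA targets were called in both directions under ethanol. Of 17 tested, 5 rose and 3 fell in mice labelled knockout, against 13.7% and 10.9% of all genes. In WT mice 4 rose and 3 fell, counts near the 18.9% and 14.5% of all genes. Fgf21, a hepatokine, had 13.2, 70.7 and 81.4 CPM in ethanol-fed and 0.93, 4.16 and 5.14 CPM in pair-fed mice labelled knockout, and 31.3, 78.6 and 18.9 CPM in ethanol-fed and 2.51, 4.73 and 3.51 CPM in pair-fed WT mice, and rose in both (adjusted p = 0.00493 with the knockout label and 0.00539 in WT, edgeR). Plin2, a lipid droplet coat protein, rose by 2.28 ± 0.36 with the knockout label and 1.52 ± 0.35 in WT on the log2 scale, and Acot2, a mitochondrial acyl-CoA thioesterase, by 2.46 ± 0.45 with the knockout label and 2.77 ± 0.46 in WT. Hilpda, a droplet protein that inhibits lipolysis, rose by 2.48 ± 0.61 with the knockout label and 3.11 ± 0.62 in WT. The peroxisomal thioesterase Acot4 fell by 0.55 ± 0.15 with the knockout label and 1.11 ± 0.15 in WT, and its relative Acot3 by 0.81 ± 0.27 with the knockout label and 1.52 ± 0.28 in WT. The omega-hydroxylases Cyp4a10 and Cyp4a14 did not pass the test in either genotype, and Cyp4a14 had 835, 1438 and 738 CPM in ethanol-fed and 725, 2587 and 3142 CPM in pair-fed WT mice.

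Some markers of liver cell types also differed between ethanol-fed and pair-fed mice. Over all genes, 13.7% rose and 10.9% fell in mice labelled knockout, and 18.9% rose and 14.5% fell in WT mice. Some of the marker counts lay near those shares. Of 7 hepatocyte markers tested, 1 rose and 0 fell in mice labelled knockout, and 0 rose and 2 fell in WT mice. Of the same 7, 5 had a negative and 2 a positive change in each genotype. Their summed level was 74243 to 135009 CPM in ethanol-fed mice labelled knockout and 82780 to 117444 CPM in ethanol-fed WT mice, against 143389 to 163862 CPM in pair-fed mice labelled knockout and 152510 to 154171 CPM in pair-fed WT mice. Most of these sums was Alb alone, with means of 80466 CPM in ethanol-fed mice labelled knockout and 69183 CPM in ethanol-fed WT mice. Of 12 Kupffer cell markers, 11 fell and 0 rose in mice labelled knockout, where their sum was 280.3 to 374 CPM when ethanol-fed and 602 to 768 CPM when pair-fed. In WT mice 0 of the 12 passed the test, and the sums were 291 to 673 CPM when ethanol-fed and 406 to 609 CPM when pair-fed. The interaction test called 0 of the 12, with 12 negative values of median -0.86 and 7 lower at an unadjusted p under 0.05. Over all 13097 genes the interaction median was 0.00054, and 402 genes were lower at that unadjusted threshold. Of 8 pericentral hepatocyte markers 3 fell and 0 rose in each genotype, and of 7 periportal ones 2 rose with the knockout label and 1 in WT mice, with 0 lower. Of 10 lymphocyte markers 3 fell with the knockout label and 2 in WT mice, and their sum stayed at or under 10.7 CPM in every library. In mice labelled knockout 2 of 8 stellate, 2 of 7 endothelial and 1 of 5 cholangiocyte markers rose and none fell. In WT mice 1 stellate, 2 endothelial and 1 cholangiocyte marker rose and 1 cholangiocyte marker fell. The 1 neutrophil marker analysed stayed at or under 2.56 CPM in every library. It rose in WT mice (log2 fold change 1.95), and its change of 1.25 in mice labelled knockout was not called. Of the markers analysed, none was at 0 in all libraries, and 4 of 5 neutrophil and 1 of 8 hepatocyte markers were not analysed here. The part of these shifts in the falls of the oxidation genes was not tested, and in bulk liver fewer cells of a type and less RNA per cell cannot be told apart.

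The genotype label on its own gave no call for any of the 34 genes within a feeding condition. In ethanol-fed mice 0 of 34 were higher and 0 lower in mice labelled knockout than in WT mice, against 0.756% and 0.374% of all genes (1.13% in either direction). In pair-fed mice the counts were again 0 and 0, against 0.702% and 0.168% of all genes (0.87% in either direction). The median log2 fold change of the 34 genes, labelled knockout over WT, was 0.21 in ethanol-fed and 0.12 in pair-fed mice, beside -0.01 over all genes in each. At an unadjusted p under 0.05, 5 of the 34 genes were higher in ethanol-fed and 2 in pair-fed mice labelled knockout, and 0 were lower. Of all 13097 genes, 921 were higher and 1008 lower at that threshold in ethanol-fed mice. In pair-fed mice 587 were higher and 523 lower. DESeq2 called 1 of the 34 genes in ethanol-fed mice. The 3 values of each label lay apart for 1 gene above and 0 below in ethanol-fed mice (6.57% and 6.21% of all genes), and for 4 above and 2 below in pair-fed mice (11.8% and 12.6% of all genes). These comparisons share their mice with the ethanol comparisons, so the values are not independent of them.

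Acsl1 was the gene with the clearest difference by label. It had 869.6, 1314 and 1212 CPM in ethanol-fed mice labelled knockout and 667, 868 and 588 CPM in ethanol-fed WT mice. In pair-fed mice it had 1403, 1513 and 1456 CPM with the knockout label and 906, 983 and 1129 CPM in WT. All 3 knockout-labelled values lay above those of WT in both feeding conditions, by a narrow margin in ethanol-fed mice. The log2 fold changes were 0.68 ± 0.18 in ethanol-fed mice (adjusted p = 0.0971) and 0.53 ± 0.18 in pair-fed mice (adjusted p = 0.293, edgeR). In the authors' deposited table of genotype comparisons, Acsl1 had an FDR of 0.0345 in ethanol-fed and 0.227 in pair-fed mice, and it was the 1 gene of the set under 0.05. With the label effect averaged over feeding, a contrast added after both single ones had been seen, Acsl1 was raised (0.61 ± 0.13, adjusted p = 0.0203, edgeR), against 1.97% of all genes raised and 1% lowered (2.97% in either direction). It was the 1 of the 34 genes called there, and 0 were called without ethanol-fed knockout-labelled mouse 2, pair-fed knockout-labelled mouse 2 or 3, or pair-fed WT mouse 1 or 2.

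Other genes with sizeable but uncalled differences by label ran in both directions. In ethanol-fed mice the labelled knockout over WT log2 fold change was 0.44 ± 0.20 for Ppara, 0.74 ± 0.31 for Ehhadh and 0.53 ± 0.22 for Eci2. It was 0.99 ± 0.54 for Pdk4, whose adjusted p was 0.418 (edgeR). Vnn1 had -0.63 ± 0.31 and Bdh1 -0.42 ± 0.20 in the same mice. In pair-fed mice the values were -0.07 ± 0.20 for Ppara, 0.21 ± 0.30 for Ehhadh, 0.25 ± 0.22 for Eci2, 1.07 ± 0.54 for Pdk4, 0.28 ± 0.31 for Vnn1 and 0.04 ± 0.20 for Bdh1. The 95% interval for Ppara in pair-fed mice was -0.49 to 0.36. That interval rests on a spread shared by all 4 groups. Pair-fed Ppara levels were 649 CPM (SD 31.7) with the knockout label and 679 CPM (SD 13.4) in WT (n = 3).

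**Figure D4:**
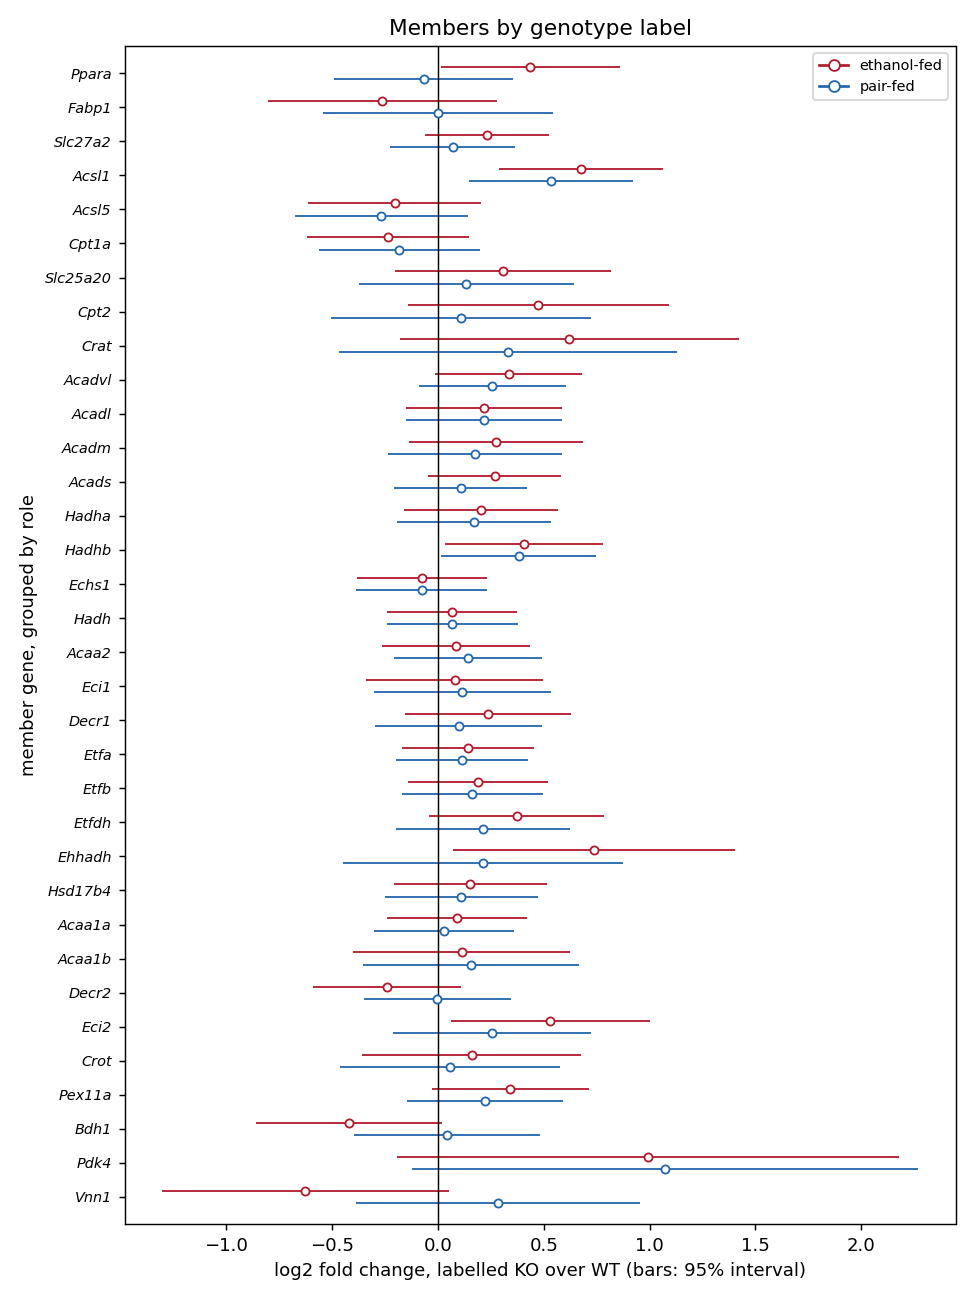
Log2 fold change of each gene, labelled knockout over WT, in ethanol-fed and in pair-fed mice, with bars of the 95% interval. Acsl1 and Hadhb lie right of 0 with both intervals, most other intervals cross 0, and no gene passed the adjusted threshold in either feeding condition.

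No gene of the set passed the test for a different ethanol response between the labels. The interaction test called 0 of the 34 genes in either direction, against 0 of all genes raised and 0.00764% lowered. At an unadjusted p under 0.05 it also gave 0 of the 34, whereas 294 of all 13097 genes were higher and 402 lower. DESeq2 also called 0 of the 34. The difference in the Ppara response, labelled knockout minus WT, was 0.50 ± 0.28 on the log2 scale, with a 95% interval of -0.10 to 1.10 (adjusted p = 0.948, edgeR). Ehhadh differed by 0.52 ± 0.43 and Bdh1 by -0.46 ± 0.29, and the intervals of both included 0.

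Within some groups, 1 mouse had the lowest or highest value for most of the genes. Among pair-fed WT mice, mouse 1 had the lowest value for 32 of the 34 genes (94.1%, against 35.4% of all genes) and mouse 3 the highest for 30 (88.2%, against 32%). Scaled by total counts alone, the same mice were lowest for 31 and highest for 30. Acaa1b shows the order, with 608, 966 and 1269.6 CPM in mice 1, 2 and 3, and Crat had 58, 101 and 139.8 CPM. Ppara did not show that span, with 665, 691 and 681 CPM. Of 7 hepatocyte markers, the lowest value in these mice was in mouse 1 for 3 and in mouse 3 for 3. Other marker lists were ordered, with Kupffer cell markers highest in mouse 1 for 9 of 12 and lowest in mouse 2 for 11 of 12, periportal markers highest in mouse 1 for 6 of 7, and lymphocyte markers lowest in mouse 2 for 9 of 10.

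Pair-fed mice labelled knockout had no such order. Mice 1, 2 and 3 were lowest for 13, 15 and 6 of the genes, while mouse 1 was lowest for 12 of 12 Kupffer cell and 8 of 8 stellate cell markers. The median coefficient of variation of the 34 genes was 4.52% in that group and 16.7% in pair-fed WT mice, beside 6.17% and 7.31% for all 1471 genes of at least 100 CPM. In ethanol-fed mice labelled knockout, mouse 1 was lowest for 24 genes and mouse 3 highest for 26, and these became 19 and 19 with total counts. Mouse 1 of that group was also lowest for 6 of 7 hepatocyte and 7 of 7 periportal markers, and highest for 11 of 12 Kupffer cell markers. In ethanol-fed WT mice, mouse 2 was highest for 29 genes and mouse 3 lowest for 24, and these became 21 and 26. Mouse 2 of that group was highest for 6 of 7 hepatocyte and 6 of 7 periportal markers, mouse 3 was lowest for 5 and 6 of them, and mouse 1 was highest for 12 of 12 Kupffer cell markers. The part of these marker orders in the order of the oxidation genes was not tested. The median coefficient of variation under ethanol was 19.4% in mice labelled knockout and 19.1% in WT mice, beside 15.7% and 15% for all such genes.

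**Figure D5:**
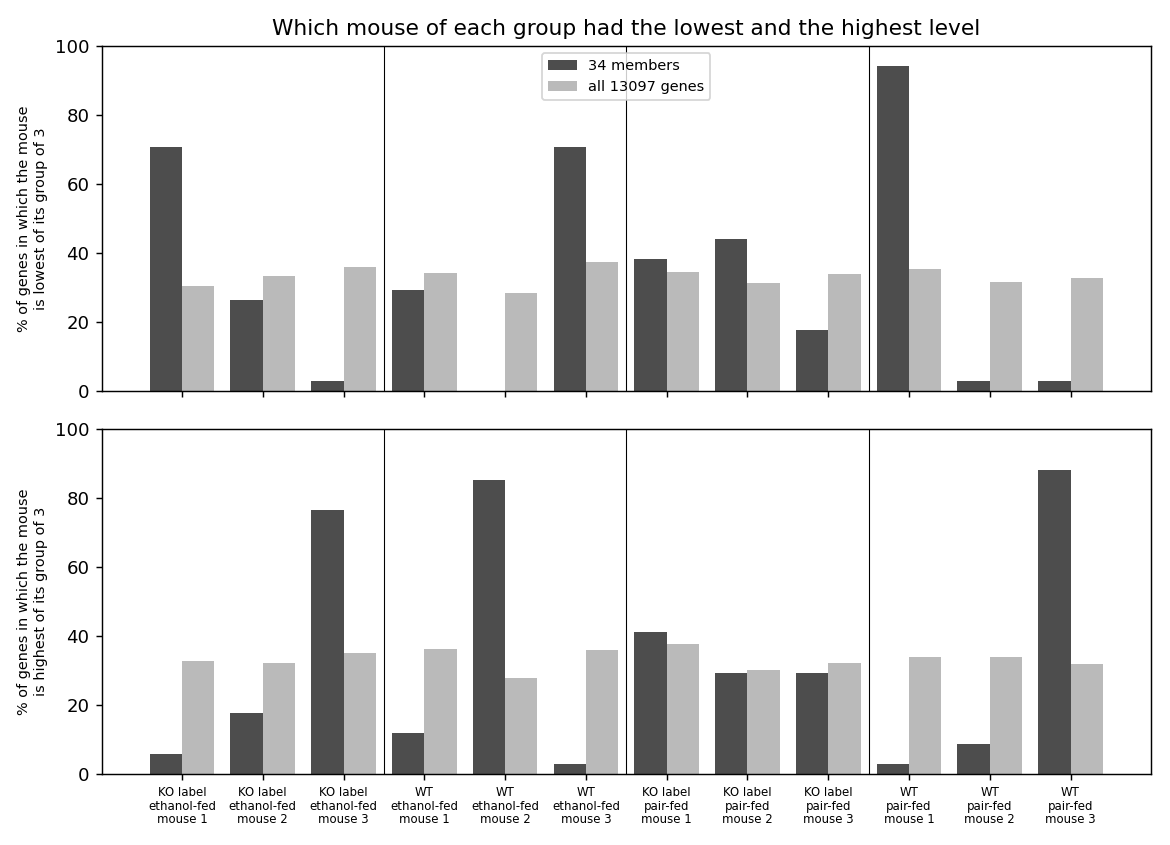
Percent of the 34 genes and of all 13097 genes for which each mouse had the lowest (upper panel) and the highest (lower panel) value of its group of 3. The bars of the 34 genes reach 94.1% for the lowest value in pair-fed WT mouse 1 and 88.2% for the highest value in mouse 3 of that group, whereas the bars of all genes stay between 27.9% and 37.8%.

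Levels per length spanned a wide range. In pair-fed WT mice, Fabp1 stood first at 5629 CPM per kilobase, before Acaa2 at 801, Slc27a2 at 759 and Acaa1b at 568. The SD of Acaa2 and Slc27a2 was 110.3 and 90.0 (n = 3), so these neighbours did not differ beyond their spread. The mitochondrial transferase Cpt1a stood at 200.3, the receptor Ppara at 90.2 and Cpt2 at 58.2, and Pdk4 was last at 10.3. In ethanol-fed WT mice Ppara stood at 23.5 and Acaa1b at 189 CPM per kilobase. Exons of Acadvl overlap Dvl2 on the opposite strand over 44.6% of their length. No source used here gives the strand setting or how reads over both genes were counted, so the level of Acadvl is uncertain.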

How the data were processed

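Total RNA from 12 livers, each from 1 mouse, was sequenced. Reads were aligned with STAR 2.5 to mm10 and counted with featureCounts (Subread 1.5.3), per the submitters' processing notes. No source used here names the gene annotation or says whether strand was used. The authors deposited whole-number counts per gene with a gene length, along with log2 fold changes and FDR values (adjusted p-values) for their own genotype comparisons, as named in the file headers. The deposited log2 fold changes and p-values were used only where named.

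From the counts, edgeR 4.0.16 (R 4.3.3) was run with the filterByExpr filter, TMM scaling and robust quasi-likelihood fits over all 12 libraries. Each group had its own coefficient, which left 8 residual degrees of freedom, and p-values were adjusted by Benjamini-Hochberg over 13097 genes at a threshold of 0.05. Precision rests on 3 mice a group and 17305141 to 18279809 counts a library. DESeq2 1.42.0, limma-voom (limma 3.58.1), other scalings and filters, a replicate block and leaving out each mouse were alternatives. The model was also run on simulated data with the same variation in every group. Variation in these data was larger under ethanol, so no conclusion is drawn from that run. Copies of transcripts were sought among GENCODE transcripts with BLAST 2.17.0 at 95% identity over at least 100 bases. Exon overlaps were also taken from GENCODE, which may hold genes that were not counted in the deposited table.

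The 34 genes and the related lists were chosen with earlier results of these data known. Of related lists, called genes with the smallest p were named, up to 4 per list and comparison, and Cyp4a10 and Cyp4a14 were named after their values had been seen. Some results on ketone body genes are not reported here.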

Additional observations from a re-analysis of the deposited data

How the results depend on the processing

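Of the genes lowered by ethanol, 11 of 14 in mice labelled knockout and 11 of 23 in WT mice were called in all 12 leave-outs and 8 other settings, and no gene of the set was raised in any of them. The count lowered in mice labelled knockout was 23 with DESeq2 and 11 to 22 when 1 library was left out. In WT mice it was 15 with only the groups compared and 11 to 25 when 1 library was left out. By label, the count raised in ethanol-fed mice was 1 with DESeq2 and 0 to 1 over the leave-outs, and in pair-fed mice 1 with only the groups compared. The count raised averaged over feeding was 2 with the replicate block and 0 to 2 over the leave-outs. The repeat was found in 1 gene with 1 mismatch and in 4 genes with 2. Among log2 fold changes that turned sign, Cpt2 in WT mice came to 0.10 with total counts and to -0.26 to 0.18 when 1 library was left out. In mice labelled knockout the leave-outs spanned -0.0054 to 0.35 for Acsl5, -0.48 to 0.0034 for Crat and -0.18 to 0.69 for Pdk4. Sirt6 by label in ethanol-fed mice was -0.0052 with DESeq2, -0.0063 with limma-voom, -0.0021 with median-of-ratios factors, -0.034 with total counts and -0.13 to 0.13 over the leave-outs. Total counts alone moved the median of all genes to 0.14 in mice labelled knockout and 0.18 in WT mice, and that of the 34 genes to -0.37 and -0.40. The cause of these shifts was not tested. Same-numbered mice shared only a number (correlations of -0.168 to 0.118), and the replicate block gave 16 genes lowered in mice labelled knockout and 21 in WT mice. With 3 mice a group, an interval that includes 0 does not show equal levels. P-values and intervals use a spread per gene that was estimated from all 12 libraries and shared by the 4 groups. Variation was larger under ethanol, so intervals of pair-fed comparisons can be wider than the pair-fed spread alone would give. Those of ethanol-fed comparisons can be narrower than the ethanol-fed spread would give.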

Other observations

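Slc27a1, a fatty acid transporter that is not among the 34 genes, was the 1 gene of the related pathway lists that rose with the knockout label within a feeding condition. It had 22.5, 26.4 and 19.2 CPM in ethanol-fed mice labelled knockout and 13.1, 13.7 and 12.7 CPM in ethanol-fed WT mice, with no overlap (0.78 ± 0.17, adjusted p = 0.0391, edgeR). In pair-fed mice it had 31.9, 33.9 and 26.6 CPM with the knockout label and 18.4, 16.5 and 24.1 CPM in WT. Averaged over feeding, a contrast added after the single ones had been seen, Slc27a1 was raised by 0.72 ± 0.12 (adjusted p = 0.00431, edgeR). Cd36, a fatty acid uptake receptor and PPARA target, was lowered in the same contrast (-1.02 ± 0.20, adjusted p = 0.0174, edgeR), with 33, 42.8 and 52.4 CPM in ethanol-fed mice labelled knockout and 65.7, 108 and 67.2 CPM in ethanol-fed WT mice, and with 45.3, 36.9 and 41.8 CPM in pair-fed mice labelled knockout and 88.1, 55.5 and 129.8 CPM in pair-fed WT mice.

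The mouse-to-mouse order seen in pair-fed WT mice extended to other genes of the pathway. Of 17 further PPARA targets, mouse 1 was lowest for 12 and mouse 3 highest for 13. Cyp4a14 had 725, 2587 and 3142 CPM and Cyp4a10 242, 753 and 1059 CPM in mice 1, 2 and 3 of that group. Among 12 further peroxisomal oxidation genes mouse 1 was lowest for 10, whereas among 20 genes of peroxisome assembly and transport it was lowest for 8. Of 16 partners and co-regulators of PPARA, mouse 1 was lowest for 5.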
